A study of Mus musculus with 12 samples.

Results

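DNA methylation was examined at 10 mouse genes whose human counterparts carry inherited risk of late-onset Alzheimer's disease (AD): Apoe, Clu, Abca7, Sorl1, Bin1, Picalm, Cd2ap, Trem2, Plcg2 and Inpp5d. A position belonged to a gene when it lay in the gene body or in the 2000 bp upstream of it in the GENCODE vM21 annotation of mm10, and when at least 9 of the 12 libraries held it with 10 reads or more. Positions are single cytosines of CpG dinucleotides on 1 strand, called rows here, so a CpG read on both strands gives a pair of rows. In all, 889 of 1697478 such rows fell in these genes, in 9 of the 10, at 577 CpGs, and Trem2 had none.

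The animals were 4 wild-type (Wt) and 8 Tg2576 (Tg) mice of 11 months, with 3 females and 1 male in the Wt group and 4 of each sex in the Tg group by their labels. Tg2576 mice carry a transgene, driven by a prion protein promoter, for human amyloid precursor protein (APP) with the Swedish familial AD mutation. They develop amyloid-β deposits and memory deficits but no tau tangles. Each library came from a piece of brain that held dorsal hippocampus and cortex together, measured by reduced representation bisulfite sequencing (RRBS), which enriches fragments around CCGG sites. The methylation level is the share of reads in which a cytosine stayed unconverted.

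The 10 genes fall into 3 roles. Apoe (the main lipoprotein apolipoprotein of the brain), Clu (clusterin, an extracellular chaperone of lipoprotein particles) and Abca7 (a lipid transporter) act in lipid handling. Sorl1 (a sorting receptor that returns APP from endosomes), Bin1 (a membrane-bending protein), Picalm (a clathrin adaptor) and Cd2ap (an adaptor to the actin cytoskeleton) act in endocytosis and sorting. Trem2 (a lipid-sensing receptor), Plcg2 (a phospholipase downstream of it) and Inpp5d (the phosphatase SHIP1, which opposes such signals) act in microglia and other myeloid cells. CpG-rich promoters are as a rule unmethylated whether or not the gene is active, while CpGs in gene bodies are mostly methylated. In bulk tissue a level averages over all cell types, and a gene used by a minor cell type can look as it does in the majority.

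Sequence shows how differently these genes present CpGs to the assay. RefSeq promoter windows (GRCm38.p6, the build of mm10) were found for 8 of the 10 genes, and the 250 bases before the start are printed for Sorl1, a CpG-rich example, and for Trem2, with every CpG in capitals. Both are given 5' to 3' on the strand of the gene.
Sorl1 upstream, chr9:42124298-42124547, minus strand: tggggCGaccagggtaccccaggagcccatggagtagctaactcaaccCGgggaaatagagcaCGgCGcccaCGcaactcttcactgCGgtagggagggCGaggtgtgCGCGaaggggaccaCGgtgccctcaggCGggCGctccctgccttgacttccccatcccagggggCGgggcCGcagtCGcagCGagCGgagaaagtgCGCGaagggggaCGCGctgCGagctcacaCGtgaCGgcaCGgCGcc
Trem2 upstream, chr17:48346151-48346400, plus strand: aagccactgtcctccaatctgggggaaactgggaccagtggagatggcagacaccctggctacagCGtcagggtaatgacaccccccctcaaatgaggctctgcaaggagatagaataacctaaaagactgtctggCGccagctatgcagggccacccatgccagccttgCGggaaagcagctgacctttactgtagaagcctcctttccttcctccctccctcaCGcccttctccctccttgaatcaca
The Sorl1 stretch held 26 CpGs and 1 CCGG, and 90.4% of 32851 RefSeq windows of the same length held fewer CpGs. The Trem2 stretch held 4 CpGs and no CCGG, and 37.8% of the windows held fewer CpGs, while 47.1% held at least 1 CCGG (the motif reads the same on both strands). The 32 rows of the Sorl1 stretch had a mean level of 1.16%. Inpp5d, in contrast, was read within 1 kb of its start only at 5 CpGs in the first coding exon, printed on the plus strand with the measured CpGs in capitals.
Inpp5d first coding exon, chr1:87620553-87620620: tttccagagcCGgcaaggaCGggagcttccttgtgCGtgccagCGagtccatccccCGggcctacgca
The mean level over the 8 rows of these CpGs was 63.4%.

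Facts of the series that touch these genes are few. Coverage summed over rows, in which a read counts at every CpG it covers, ran from 33619981 (Tg female 4) to 131446104 (Tg female 1), and the rows of the risk genes had a median coverage of 33 reads in a library, from 10 to 132. The library labelled Wt male had a mean level of 19.9% over rows of chromosome X held by all 12 libraries, just below the females (20.7% to 23.0%) and apart from the Tg males (5.50% to 5.67%), which goes against its label. All 10 genes are autosomal, but sex was a covariate, so the main counts of calls are also given without this library. Even counts outnumbered odd ones: depending on the library, 62.7% to 82.3% of the coverages of the risk gene rows were even, and among partly methylated rows of even coverage 90.1% to 97.0% of the methylated counts were even too. Whether both mates of a read pair were counted was not tested, and every interval, limit and binomial p below covers counting error only, with each read as 1 observation. Promoter rows of neuronal and oligodendrocyte markers were low (Rbfox3 1.10%, Snap25 1.79%, Olig2 1.91%, Mbp 4.83%). The astrocyte markers were split, with Slc1a2 at 0.950% and Aldh1l1 at 26.1% over 7 rows, from 3.65% to 49.3% across animals. None of the 5 microglial markers had a promoter row in all 12 libraries, so the share of microglia could not be read from this assay.

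The rows lay mostly at promoters. Of the 889 rows, 652 were within 1 kb of a transcription start, 150 in introns, 85 in coding exons and 2 upstream. Outside Inpp5d, all 644 promoter rows had a mean level under 10%, with a median of 0.606% and a highest value of 9.57%. Over all genes, 94.4% of the 1158276 rows within 1 kb of a start were under 10%. The 237 rows farther away had a median level of 61.9%, against 38.6% over the 538880 such rows of the genome, with medians of 69.5% in coding exons and 60.5% in introns.

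**Figure D1:**
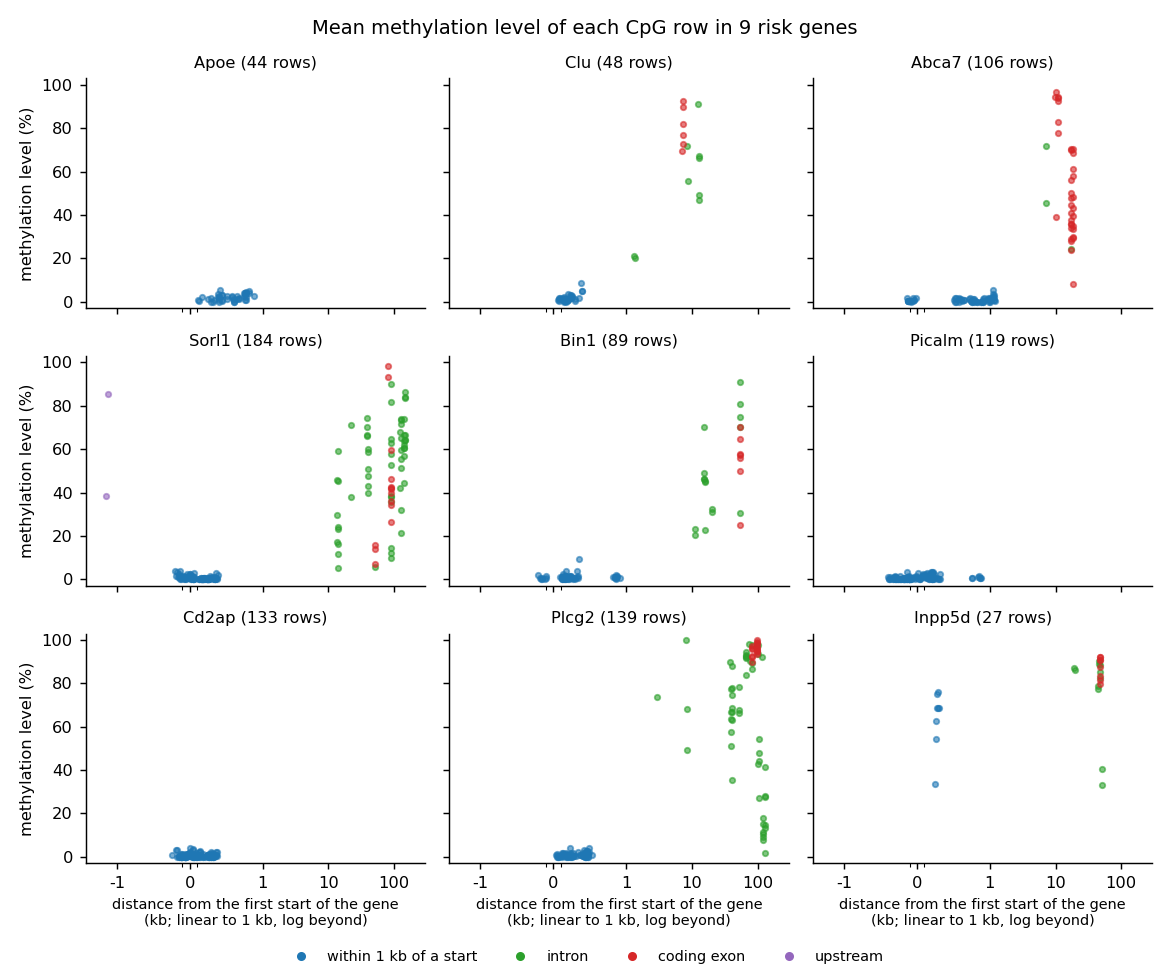
Mean methylation level over the animals (vertical axis, percent) of each of the 889 CpG rows against its distance from the 5' start of its gene (horizontal axis, kb, linear to 1 kb and logarithmic beyond), in 9 genes. Rows within 1 kb of a start sit under 10% in 8 genes and between 33.5% and 76.1% in Inpp5d, and rows of the gene body spread from 1.88% to 100%.

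Among the lipid genes, Apoe (chr7:19696109-19699188, minus strand) is short and was read only around its starts. Its 44 rows, in a stretch with 17 CpGs per 500 bases, had a mean level of 2.02%, from 0% to 5.34%. Clu (chr14:65968483-65981547, plus strand) had 33 promoter rows with a mean of 1.75% and 15 rows in the body with a mean of 64.9%, with 20.6% over 2 rows in an intron 1311 bp from the start and up to 92.5% in a coding exon. Abca7 (chr10:79996494-80015572, plus strand) had 69 promoter rows with a mean of 0.882% and 37 body rows with a mean of 52.5%. The coding exons at the 3' end of Abca7 were partly methylated, with a mean of 43.8% over 12 rows of chr10:80015000-80015085, whereas 5 rows of an exon at chr10:80007408-80007435 averaged 88.4%.

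Among the endocytic genes, Picalm (chr7:90130213-90213465, plus strand) and Cd2ap (chr17:42792951-42876665, minus strand) were read only at their promoters, with means of 0.761% over 119 rows and 0.657% over 133 rows. Both bodies are poor in RRBS sites, with 4.11 and 5.72 CCGG per 10000 bases, against 17.7 in Apoe and 20.9 in Abca7. Sorl1 (chr9:41964720-42124297, minus strand) had a promoter mean of 0.670% over 108 rows, and 76 other rows whose levels ran from 5.10% to 98.3%. A stretch in Sorl1 reaching from a coding exon into an intron, more than 50 kb from the start (chr9:42072221-42072339), had levels of 5.48% to 15.7% over 4 rows. Bin1 (chr18:32377230-32435737, plus strand) had 66 promoter rows with a mean of 1.01%, all inside the overlapping gene A830052D11Rik (as 25 Picalm promoter rows lay in 2310010J17Rik and 12 Sorl1 intron rows in Gm16214), and 23 body rows with a mean of 50.5%.

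Among the microglial genes, Plcg2 (chr8:117498291-117635142, plus strand) combined a promoter at 0.899% over 72 rows with 67 body rows at a mean of 69.1%. Its body was not uniform: 10 rows in a coding exon at chr8:117596296-117596409 averaged 96.7%, whereas 6 intron rows at chr8:117617902-117618034 averaged 12.1%. Inpp5d (chr1:87620312-87720507, plus strand) had only 27 rows, 8 of them at the first coding exon. Its promoter level, 61.8% over the 4 rows held by all 12 libraries, exceeded that of 99.2% of 13053 protein-coding genes with at least 3 such rows, whose median was 0.896%. The other Inpp5d rows had a mean of 80.9%. CpG density around the Inpp5d exon was the lowest among the promoter stretches of the 9 genes, with 15 CpGs per 500 bases against 17 to 71.

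Trem2 (chr17:48346401-48354147, plus strand) had 14 rows in any library, none within 1 kb of a start and none in more than 4 libraries. Most of the reads at these rows were methylated. The row held most often, at chr17:48350191, had 58 methylated of 62 reads, in 2 Wt and 2 Tg animals. No comparison of genotypes could be made at Trem2.

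The question of the study was whether methylation differs between Tg and Wt brains. Over the 501 risk gene rows held by all 12 libraries, the 4 Wt animals averaged 7.97% ± 0.491 (SD, n = 4), and the 8 Tg animals averaged 7.90% ± 0.228 (SD, n = 8). The Wt animals were at 8.56%, 7.38%, 7.86% and 8.08% and the Tg animals between 7.67% and 8.29%, so the groups overlapped. The difference, Tg minus Wt, was -0.07 points (two-sided exact permutation test over 495 splits, p = 0.752).

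Row by row, genotype was tested in a logistic model of read counts with sex as covariate, in 2 forms. The binomial form treats reads as independent, and the overdispersion form allows for extra spread between animals that share a genotype. A differentially methylated site (DMS) was a row with an adjusted p under 0.1 over all 1697156 rows tested and a read-weighted difference of at least 10 points. The binomial model called 56 of the 889 rows (6.30%), 30 higher and 26 lower in Tg, against 4.36% of all rows, of which 2.38% were higher in Tg. The overdispersion model called none of the 889 and 0% of all rows, with a smallest adjusted p of 0.512. Without adjustment, 75 of the 889 rows (8.44%) had p under 0.05 in the overdispersion model, against 9.34% of all rows. With limma on logit levels, no row was called either, and 14 of 501 risk gene rows (2.79%) had an unadjusted p under 0.05, against 5.19% of all.

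The binomial calls lay in gene bodies. Within 1 kb of a start, 2 of 652 rows (0.307%) were called, both in Inpp5d, against 1.23% of all such rows. Farther away, 54 of 237 rows (22.8%) were called, against 11.1% of all such rows. Intermediate levels were more frequent in the risk genes than in the genome: among rows farther away with a read-pooled level of 10 to 90%, 49 of 187 (26.2%) were called, against 20% of all. The dispersion, the factor by which animals varied beyond counting error with each read as 1 observation, had a median of 3.86 in these rows. It was 3.51 over all such rows, and 4.03 in the 56 called rows. Counting both mates of a read pair would also raise it, which was not tested. Without the library labelled Wt male, 41 of the 889 rows were called, against a share of 3.63% over all rows. Farther away, 16.5% were called, against 9.32% of all such rows. When 2 reads were counted as 1 observation, a setting added after the even counts were seen, 4 of the 889 rows were called (0.376% over all rows): both strands of an intron CpG of Sorl1 (chr9:42083366), a Plcg2 row (chr8:117565887) and an Abca7 row (chr10:80013915).

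**Figure D2:**
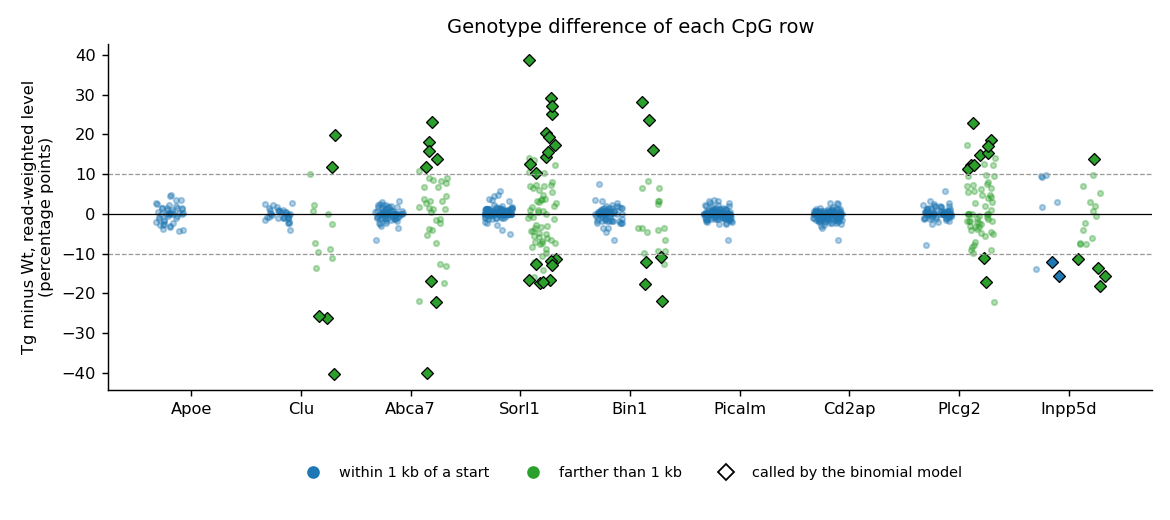
Difference in read-weighted methylation level, Tg minus Wt in percentage points (vertical axis), of each CpG row in 9 genes (horizontal axis), with rows within 1 kb of a start in blue, rows farther away in green and the 56 rows called by the binomial model as outlined diamonds. Dashed lines mark 10 points, and the called rows reach from -40.3 to 38.8 points, with none in Apoe, Picalm or Cd2ap.

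By gene, Sorl1 had 19 called rows (11 higher in Tg), Plcg2 10 (8 higher), Abca7 8 (5 higher), Bin1 7 (3 higher), Inpp5d 7 (1 higher) and Clu 5 (2 higher). Farther than 1 kb from a start, the called rows were 19 of 76 in Sorl1 and 10 of 67 in Plcg2. They were 8 of 37 in Abca7, 7 of 23 in Bin1, 5 of 19 in Inpp5d and 5 of 15 in Clu. Over all genes 11.1% of such rows were called. Apoe, Picalm and Cd2ap, which were read only at promoters, had none. These counts changed when single libraries were left out, as did the share called over all rows. That share was 3.63% without the library labelled Wt male and 5.27% without Wt female 1, against 4.36%. Without the library labelled Wt male, Sorl1 had 12 called rows, Plcg2 10, Abca7 4, Bin1 4, Inpp5d 5, Clu 5 and Cd2ap 1. Without Wt female 1, Plcg2 had 16 and Picalm 1, without Wt female 2 Bin1 had 4, and without Wt female 3 Clu had 2. Of the 56, 29 had the opposite strand of the same CpG among the rows, which differed in the same direction in 21 cases and was called too in 14. These 14 rows form 7 CpGs, 5 of them in Sorl1. Both strands were read in the same animals, and the matching shares over all called rows of the genome were not computed. In 54 of the 56 called rows the ranges of the Wt and the Tg animals overlapped.

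The ranges stood apart in 2 of the 889 rows (0.225%), against 0.248% of all rows, and both were called by the binomial model. Each of the 2 rows was held by only 9 libraries, and ranges of fewer animals stand apart more easily. Both rows lie in exons of lipid genes, and the stretches that hold them are printed on the plus strand with the measured CpGs in capitals.
Clu coding exon, chr14:65975652-65975754: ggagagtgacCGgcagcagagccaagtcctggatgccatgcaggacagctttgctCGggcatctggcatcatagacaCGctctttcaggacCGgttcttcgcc
Abca7 coding exons and the intron between them, chr10:80013691-80013925: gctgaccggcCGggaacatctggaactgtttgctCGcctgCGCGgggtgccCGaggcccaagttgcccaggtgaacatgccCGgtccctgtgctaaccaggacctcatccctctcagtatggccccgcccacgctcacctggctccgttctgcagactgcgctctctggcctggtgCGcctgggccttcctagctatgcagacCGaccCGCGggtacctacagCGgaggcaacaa
In the Clu exon, the row at chr14:65975662 on the plus strand was at 100%, 81.8% and 100% in Wt females 1 to 3. The Tg animals ran from 40.0% over a median of 58.3% to 73.3% (n = 6), so every Tg animal with the row was below every Wt animal with it. The read-weighted difference was -40.3 points (45 of 47 Wt reads and 71 of 128 Tg reads methylated), with an adjusted p of 0.528 in the overdispersion model and 0.000193 in the binomial model. The row was missing in the library labelled Wt male. All 6 rows of this exon stretch were lower in Tg, with differences of -40.3 to -7.29 points, and 2 of them were called by the binomial model.

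In Abca7, the row at chr10:80013915 on the minus strand was at 84.0% and 92.0% in Wt females 1 and 3 and at 100% in the library labelled Wt male. The Tg animals ran from 20% over a median of 69.0% to 80% (n = 6). The read-weighted difference was -40.1 points, with an adjusted p of 0.590 in the overdispersion model. Without this Wt male library 2 Wt animals were left, and the difference over all single-library omissions ran from -45.5 to -24.7 points, the latter without Tg male 4. Rows in the exon 5' of it went the other way, among them both strands of the CpG at chr10:80013725, higher in Tg by 13.9 and 15.8 points.

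The row with the smallest overdispersion p of each gene was examined next, and none passed adjustment. In 7 of the 9 genes this row was in a promoter, with 0 methylated reads in every Tg animal that held it and a few in Wt. These rows were picked by their small p in this same comparison, so their shared direction was not a separate test. Their dispersion was between 7.35e-08 and 0.892 in these 7 genes, below the floor of 1 that the model used. In Plcg2, the row at chr8:117498778 was at 19.5%, 0%, 8.51% and 0% in Wt females 1 to 3 and the library labelled Wt male, and at 0 of 323 reads in the 8 Tg animals, which allows a level of up to 0.929%. Its read-weighted difference was -7.89 points (adjusted p = 0.512 in the overdispersion model), and the opposite strand differed by 5.87 points the other way. Without Wt female 1 the difference was -3.60 points. In Abca7, the row at chr10:79997067 was at 7.55%, 14.5%, 0% and 0% in the same Wt animals and at 0 of 275 reads in Tg, which allows up to 1.09%. The difference of -6.63 points was -3.17 without Wt female 2. In Clu (chr14:65968649), Cd2ap (chr17:42876690), Picalm (chr7:90129889), Bin1 (chr18:32377458) and Apoe (chr7:19698742) the differences were -2.41, -2.07, -1.68, -3.45 and -2.99 points, each from at most 6 methylated Wt reads, while the Tg animals together had 0 of 415, 324, 452, 289 and 257 reads, which allows up to 0.723%, 0.926%, 0.664%, 1.04% and 1.17%. Each of these 5 differences rested on 1 or 2 Wt animals. Without the library labelled Wt male, that of Clu was -0.99, that of Cd2ap -0.83 and that of Picalm 0 points. The Bin1 difference was -2 points without Wt female 2, and the Apoe difference was 0 without Wt female 3 and -4.49 without Wt female 1.

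The other 2 genes had their smallest p in introns. In Sorl1, the row at chr9:42033807 was at 100% in all 3 Wt animals that held it, and ran from 68% over a median of 86.1% to 100% in the 8 Tg animals. The difference was -12.5 points (adjusted p = 0.528 in the overdispersion model), and the opposite strand differed by -11.9 points. In Inpp5d, the row at chr1:87665874 was at 100% in the 3 Wt animals that held it and at 66.7% to 100%, with a median of 84.6%, in 7 Tg animals. The difference was -15.7 points (adjusted p = 0.529).

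Summing reads per gene gave more depth at the cost of position. In the overdispersion model, none of the 9 genes was called over the whole gene (0.0157% of 19100 genes were called) or over the promoter (0.0122% of 16335). Over the remaining rows, 4 genes (Abca7, Sorl1, Bin1 and Plcg2) had enough rows to be tested and none was called (0.0111% of 8983), and adjusted p over the 22 region tests ran from 0.793 to 0.984. The smallest p was that of the Bin1 rows away from the promoter. Of its 23 body rows, 9 were held by all 12 libraries and entered the test, all in chr18:32431993-32432132 near the 3' end, in a coding exon and the intron beside it. There, the Wt animals had mean levels of 63.3%, 58.1%, 65.2% and 66.6%, and the Tg animals ran from 52.2% over a median of 57.7% to 61.5%. The Tg animals were lower as a group, with 1 Wt animal inside their range. The read-weighted difference was -8.17 points (adjusted p = 0.793 in the overdispersion model). The mean of the row levels averaged 63.3% ± 3.72 over the Wt animals (SD, n = 4) against 57.2% ± 3.39 over the Tg animals (SD, n = 8), and a two-sided exact permutation test gave p = 0.0182, the smallest of 22 region tests in these genes. Without each library in turn, the read-weighted difference ran from -9.29 to -7.16 points.

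The Inpp5d promoter rows were at 71.4%, 70.3%, 60.9% and 62.5% in the Wt animals and ran from 43.0% over a median of 60.2% to 72.7% in Tg. The Wt range lay inside the Tg range, and the difference of the means of -6.67 points did not pass the exact permutation test (p = 0.277). The row means of body rows held by all 12 libraries differed by less than 1 SD of the 8 Tg animals in Abca7 (15 of 37 rows, 49.0% in Wt and 51.1% ± 3.41 in Tg), in Sorl1 (34 of 76 rows, 46.0% and 46.5% ± 2.87) and in Plcg2 (5 of 67 rows, 47.0% and 51.2% ± 8.01). The read-weighted differences of these bodies, Tg above Wt, were 0.903, 3.20 and 8.87 points, the last larger in size than that of Bin1. Their adjusted p in the overdispersion model were 0.908, 0.835 and 0.884. Promoter means of the other 8 genes were between 0.391% and 2.57% in Wt and between 0.494% and 2.24% in Tg, with exact permutation p of 0.206 or more.

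**Figure D3:**
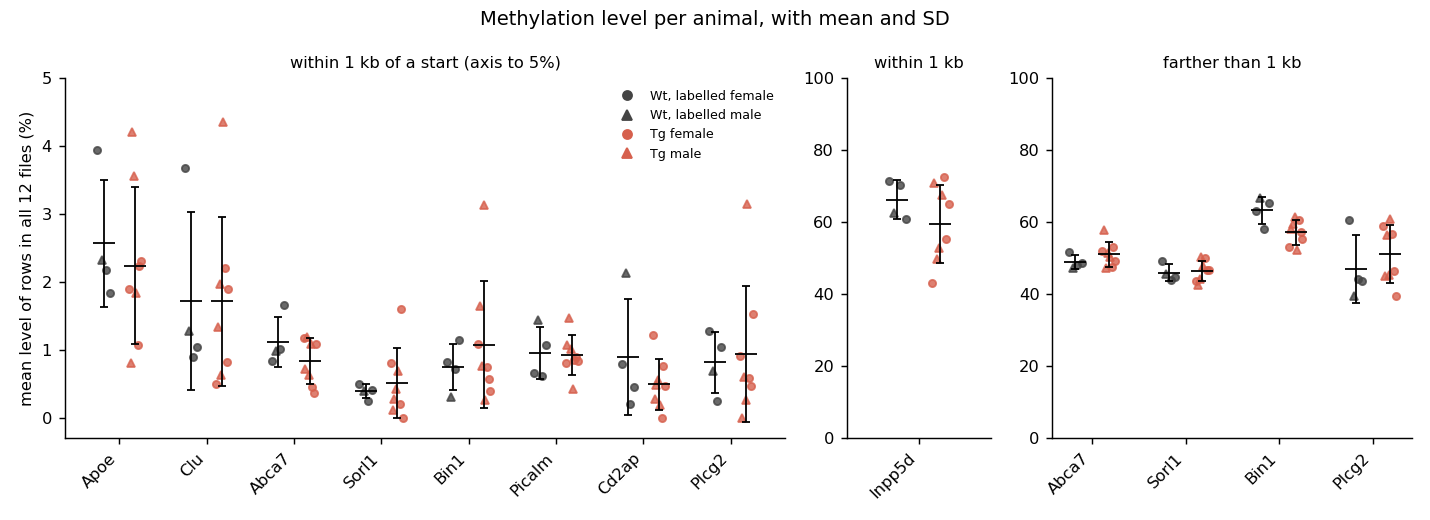
Mean methylation level of the rows held by all 12 libraries (vertical axes, percent) in each animal, for rows within 1 kb of a start in 8 genes (left, axis to 5%) and in Inpp5d (middle), and for rows farther away in 4 genes (right). Points are animals (Wt grey, Tg red, triangles labelled male), bars are the mean and SD, and the Wt and Tg points overlap in every gene, least in the Bin1 body.

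The CpGs that varied most between animals are described next, chosen after their values were seen. Of 312 CpGs read on both strands, 8 had an SD over 20 points across animals on both strands, 6 in introns of Sorl1 and 2 in Abca7. Intron CpGs of Bin1 and Clu came just under this cutoff, at 19.7 and 19.1 points on the strand with the smaller SD. Most risk gene rows lay at promoters with levels near 0, which leaves little room to vary. The 2 with the largest SD lie in separate introns of Sorl1, and their stretches are printed on the plus strand with the measured CpGs in capitals.
Sorl1 intron stretch A, chr9:42033766-42033921: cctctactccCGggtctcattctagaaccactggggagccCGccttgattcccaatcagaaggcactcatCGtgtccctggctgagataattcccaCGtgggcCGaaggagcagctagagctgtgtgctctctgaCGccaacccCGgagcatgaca
Sorl1 intron stretch B, chr9:42083350-42083452: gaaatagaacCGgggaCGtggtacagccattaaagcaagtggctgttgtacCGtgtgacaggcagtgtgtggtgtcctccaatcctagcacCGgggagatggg
At the CpG at chr9:42033869 in stretch A, both strands together were at 0%, 64.3% and 51.7% in Wt females 1 to 3, and at 0% in the library labelled Wt male. In Tg females 1 to 4 the level was 80%, 0%, 84.2% and 40%. In Tg males 1 to 4 it was 40%, 47.1%, 100% and 56.3%, with only 10 reads in Tg male 1. At the CpG at chr9:42083366 in stretch B, the Wt animals were at 0%, 33.3%, 64.3% and 0% in the same order, Tg females 1 to 3 at 45.7%, 0% and 79.6%, and the Tg males at 37.5%, 40.6%, 83.6% and 74.6%. In some animals the plus and minus strands were far apart. Tg male 2 was at 85.7% and 20% at chr9:42033869, and Wt female 2 at 8.33% and 66.7% at chr9:42083366. In others they were close, as in Wt female 3 at chr9:42083366, with 64.3% on each. The same 3 animals, Wt female 1, the library labelled Wt male and Tg female 2, were at 0 at both CpGs, on 26 to 79 reads, which allows levels of up to 3.80% to 11.5%.

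These CpGs carried some of the largest binomial calls. At chr9:42083366 the plus and minus strands differed by 38.8 and 27.1 points, Tg above Wt, with adjusted binomial p of 1.55e-09 and 6.34e-05. The overdispersion model, which takes up the spread among animals of a group, gave an adjusted p of 0.625 for both strands. At chr9:42033869 the differences were 29.1 and 25.1 points, with adjusted p of 0.686 and 0.836 in the overdispersion model.

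**Figure D4:**
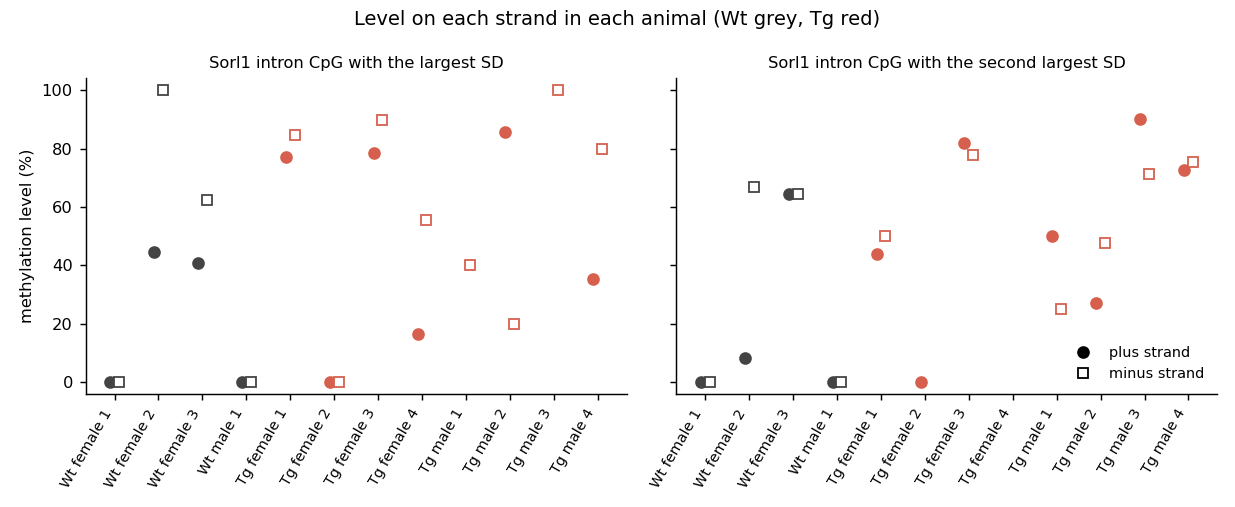
Methylation level (vertical axis, percent) on the plus strand (filled circles) and minus strand (open squares) in each of the 12 animals (horizontal axis; Wt grey, Tg red) at the Sorl1 intron CpGs at chr9:42033869 (left) and chr9:42083366 (right). A missing symbol has fewer than 10 reads, and Wt female 1, the library labelled Wt male and Tg female 2 sit at 0 in both panels wherever they have a value.

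Sex was compared within the 8 Tg animals, 4 of each sex. The binomial model called 46 of 864 risk gene rows (5.32%), 28 higher and 18 lower in males, against 6.14% of all rows and 5.24% of autosomal rows. The overdispersion model called none of them and 0% of all rows, and without adjustment 29 rows (3.36%) had p under 0.05 in it, against 5.65% of all rows. The calls fell in Sorl1 (18 of 183 rows), Inpp5d (8 of 25), Plcg2 (7 of 131), Abca7 (6 of 96), Bin1 (4 of 88) and Clu (3 of 45). Of these calls, 13 were also called for genotype, a comparison that uses the same Tg animals. The share of all rows called in both comparisons was not computed. None of the 9 risk genes was called for sex over the whole gene (1.52% of genes called) or the promoter (1.73%), nor any of the 4 tested over the remaining rows (0.345%), with adjusted p from 0.816 to 0.990. Of the 18682 autosomal genes tested over the whole gene, 11 were called.

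Partner genes were set beside the 10 by the same binomial rule. Of 20 other AD risk genes, 105 of 2006 rows (5.23%) were called, 61 higher in Tg, against 4.36% of all rows. The gene Wwox alone held 453 of these rows and 59 of the calls, 36 of them higher in Tg. Endocytosis partners such as Dnm1 and Cltc had 29 of 1102 rows called (2.63%), and microglial signalling partners such as Syk and Lyn 27 of 494 (5.47%). Among rows farther than 1 kb from a start the called share was 13.5%, 9.60% and 14.5% in these lists, against 11.1% of all such rows and the 22.8% of the risk genes. In the first list, Wwox held 408 of the 696 such rows and 57 of their 94 calls. Over the whole gene, the overdispersion model called none of the 18 other AD risk genes, 9 endocytosis partners and 4 microglial signalling partners with enough rows to be tested.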

How the data were processed

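Brain DNA of 12 mice was measured by RRBS. Per the labels and the study's methods, a commercial service prepared and paired-end sequenced the libraries, reads were aligned to mm10 with Bismark, and the authors tabulated them with methylKit. The deposited values are counts per strand-specific CpG cytosine (coverage, with its split into unconverted and converted reads), with at least 10 reads in every library and no pooling of animals. Versions of these tools are not given in the sources used here.

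From these counts, the tables were merged by position for the 19 autosomes and chromosome X, without 11 positions that a table listed repeatedly. Depth per library is given in the results. Rows in at least 9 libraries, 2 of them Wt, entered a logistic regression with genotype and sex as terms, tested by likelihood ratio (binomial form) or an F test with a Pearson dispersion of at least 1 (overdispersion form), Benjamini-Hochberg adjusted over all rows. The thresholds follow the study, but the calls of the binomial form are not the sites it reported. That form called 1.72% of the 980547 rows in all 12 libraries, far more than the sites the study reported from such rows. None of the risk genes is among those the study linked to its sites. The cause of this gap was not tested. Gene regions with at least 3 rows in all 12 libraries were tested on summed reads in the overdispersion form. Python 3.11.15, numpy 2.4.6, scipy 1.17.1 and, as an alternative, limma 3.58.1 in R 4.3.3 were used, the last on log2 logit values with 1 read added to each class. The code was tested on simulated data. Annotation was GENCODE vM21 basic. Sequences came from RefSeq and the GRCm38.p6 genome.

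Named rows were every row called in the overdispersion form, then called rows whose Wt and Tg ranges did not overlap, then the row with the smallest overdispersion p of each gene. The genes, lists and tests were chosen with earlier results of these data known. A list of lipoprotein partner genes is not reported here. Animals are separate mice, and their replicate numbers, assigned here in accession order, only name them. Alternatives were a minimum of 20 reads, rows in all 12 libraries, no covariate, the 7 libraries labelled female, summed strands, other differences and thresholds, other gene borders, limma, and leaving out each library.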

Additional observations from a re-analysis of the deposited data

Results flagged for a closer look

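Within groups of 4 or 8 animals, 88 sets of regional levels were examined for a single animal far from the rest by Dixon's criterion, and 4 stood out, where chance marks about 1 in 20 groups. Tg male 4 was the highest of the 8 Tg animals at 7.66% over the whole of Plcg2, with the next at 5.45%. The same animal was the highest at 4.36% in the Clu promoter, with the next at 2.21%. In the Clu promoter, Wt female 1 was the highest of the 4 Wt animals at 3.68%, with the next at 1.28%. Over the whole of Inpp5d, Wt female 3 was the lowest of the 4 Wt animals at 64.9%, with the next at 71.2%, over 6 rows.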

How the results depend on the processing

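The number of calls by the binomial model depended on the coverage required, on the cutoff and on how reads were counted. For genotype, 15 of 568 risk gene rows were called at a minimum of 20 reads (1.84% of all rows), 14 of 501 among rows in all 12 libraries (1.72%), 9 of 889 at a difference of 25 points (0.479%), and 4 of 889 when 2 reads were counted as 1 (0.376%), against 56 of 889 (4.36%). Fewer rows were tested in the first 2 cases. Among rows farther than 1 kb from a start, 20% of 70 were called at a minimum of 20 reads (6.66% of all such rows). In all 12 libraries 18.2% of 66 were called (6.36%), against 22.8% of 237 (11.1%). The other 2 settings could only lower the count: 25 points is a stricter cutoff on the same fit, and counting 2 reads as 1 divides the test statistic by 2. The cause of the fall in the first 2 cases was not tested further. Leaving out single libraries gave from 41 calls (3.63% of all rows, without the library labelled Wt male) to 65 calls (5.27%, without Wt female 1). In the overdispersion model, which was not run with 2 reads counted as 1, 0 rows were called under each alternative run, and limma, run in 1 setting, called 0. For sex in Tg animals, 7 of 537 rows were called at a minimum of 20 reads (2.81% of all rows) and 15 of 571 among rows in all 8 libraries (3.10%), against 46 of 864 (6.14%). For gene regions, 0 were called by the overdispersion model under each alternative run, and 1 of 22 had an exact permutation p under 0.05 on row means, unadjusted. Small differences over whole genes changed sign: at a minimum of 20 reads Abca7 went to 0.16 and Bin1 to -0.36 points, on row means Abca7 to 0.25 and Bin1 to -0.67, and in libraries labelled female Cd2ap to 0.15. Without single libraries, Apoe ran from -0.91 to 0.14, Clu from -0.41 to 0.46, Picalm from -0.21 to 0.0318 and Cd2ap from -0.41 to 0.0181 points. The difference over the 501 risk gene rows in all 12 libraries went from -0.07 to 0.19 points on summed reads, and from -0.27 to 0.13 without single libraries. Over all risk gene rows that each animal held, which are not the same rows in every animal, it was -1.87 points (two-sided exact permutation test, p = 0.168). No paired analysis was possible because each library came from a separate mouse of 1 genotype, and the labels give no pairs. With 10 reads, a level is known only in steps of 10 points, and 42 of the 56 called rows were missing from at least 1 library.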
